A study of Mus musculus with 6 samples.

Results

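A set of 34 genes for the protein-folding machinery of the endoplasmic reticulum (ER) and for the unfolded protein response was taken by gene symbol from the count table. All 34 were found, once each, among 40428 features, and all 34 passed the low-count filter that 19272 features passed. They comprise 5 chaperones, 5 protein disulfide isomerases, 7 co-chaperones and other luminal proteins, 10 proteins of ER-associated degradation, 5 stress sensors and factors, and 2 subunits of the protein translocation site.

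The 6 libraries are of subcutaneous white fat from C57BL/6J mice, 3 ANKO and 3 control, all held at room temperature with regular chow. ANKO mice lack Nampt, the rate-limiting enzyme of NAD+ salvage, in adipocytes, from a cross of Nampt flox mice with adiponectin-Cre transgenic mice. The control mice carried flox/flox Nampt. Adiponectin-Cre acts in adipocytes while the RNA is of whole tissue, which also holds vascular, stromal and immune cells. The labels of both groups give neither age nor sex, and they do not say which mice were littermates.

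Proteins that are secreted or sit in membranes fold in the ER, where chaperones bind unfolded chains, disulfide isomerases form and shuffle their disulfide bonds, and failed chains are exported to the cytosol for degradation. When unfolded proteins build up, the sensors IRE1, PERK and ATF6 are activated. IRE1 splices Xbp1 mRNA, ATF6 is cleaved into a transcription factor, and both arms induce chaperones and degradation proteins. PERK phosphorylates the translation factor eIF2-alpha, which slows translation in general but raises that of ATF4, and the same step can be taken by other kinases outside the ER. White adipocytes secrete adiponectin and other adipokines through this machinery.

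Levels are given as CPM, read counts of a gene scaled to a common library size by TMM normalisation. Nampt itself had 48.6, 50.2 and 47.0 CPM in ANKO 1, 2 and 3, against 83.6, 93.0 and 87.0 CPM in control 1, 2 and 3. The log2 fold change, ANKO over control, was -0.85 with a standard error (SE) of 0.0776, and the adjusted p was 0.00416 by edgeR's quasi-likelihood test. Library totals were 19748962 to 23860596 counts. Adipocyte markers were present in every library. The summed CPM of 10 such genes was 5169, 7723 and 6395 in ANKO, against 12234.5, 16848 and 18625 in controls, and 3 of the 10 were called lower. Macrophage markers summed to 1125, 1185 and 1404 CPM over 13 genes in ANKO, against 895, 917 and 791 CPM in controls, with 3 of the 13 called higher. Of 8 mast cell markers 6 were tested and 4 called higher. The 8 summed to 207, 209 and 153 CPM in ANKO against 137, 136 and 69.5 CPM in controls. Most of each sum was Kit, which was not called, with 129, 137 and 82.0 CPM in ANKO against 103, 108 and 42.8 CPM in controls. Skeletal muscle markers varied within both groups, from 286 to 36158 CPM in ANKO and from 3559 to 19086 CPM in controls. Of 10 fibroblast and preadipocyte markers, 9 had log2 fold changes above 0, against 50.1% of all features. The 10 summed to 11246, 7694 and 12854 CPM in ANKO, against 7272, 9622 and 8210 CPM in controls. All 9 endothelial and all 8 T cell markers had log2 fold changes below 0. None of the fibroblast, endothelial or T cell markers was called. No marker of these lists was at 0 in all 6 libraries. The part of these cell types in the results below was not tested. In whole tissue, fewer cells of a type and less RNA per cell cannot be told apart.

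No member of the ER folding set passed the threshold of an adjusted p under 0.05 in either direction. Over all 19272 features, 94 were called higher in ANKO (0.488%) and 212 lower (1.10%). The smallest adjusted p among the members was 0.134, for Sel1l. The log2 fold changes of the 34 members ranged from -0.32 to 0.78 with a median of 0.03, and 22 of 34 were above 0, against a median of 0.00 and 50.1% above 0 over all features tested. The median size of the change without its sign was 0.14 in the members and 0.18 over all features. At an unadjusted p under 0.05, 5 members were higher and 1 was lower, against 6.03% and 6.90% of all features. The CPM of all 3 ANKO libraries stood above all 3 controls for 6 members and below them for 2, against 9.19% and 10.2% of all features. By DESeq2, Sel1l was called higher and no member lower, where 2.01% and 2.58% of the features with an adjusted p were called.

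The promoter elements through which ATF6, XBP1 and ATF4 are known to induce such genes are shown to set the members beside the neighbouring ATF4 targets described further on. Promoter windows of 250 bases before to 50 bases after the start came from the RefSeq table of GRCm38.p6 and matched 30 of the 34 members, all but Hyou1, Manf, Atf6 and Derl1. The ER stress response element, CCAAT followed by 9 bases of any kind and CCACG, was searched on both strands. It was found for 37 of all 27025 genes in the table (0.137%), and 9 of those 37 were members, 30.0% of the members matched. The second form of the element, ATTGG, 1 base and CCACG, was found for 12 genes (0.0444%), among them the members Dnajb11 and Herpud1. The element read by XBP1 or ATF6, searched as TGACGTGG or TGACGTGA, was found for 1.22% of genes and for Hspa5 alone among the members. It can overlap the ER stress response element, since CGTGG is CCACG on the other strand. The amino acid response element bound by ATF4 with a partner, searched as TTGCATCA, was found for 1.03% of genes and for Herpud1 alone among the members. Below are the stretches around these matches, save that of Dnajb11, which lies after the start and is not shown, each 5′ to 3′ along the strand of its gene, with the letters of the motifs in capitals. CGTGG before ATTGG is the ER stress response element on the opposite strand.
Hspa5 (chr2:34771918-34772058, plus strand): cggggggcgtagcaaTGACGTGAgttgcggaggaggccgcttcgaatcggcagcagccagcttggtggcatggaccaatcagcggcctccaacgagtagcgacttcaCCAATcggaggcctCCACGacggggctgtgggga
Hsp90b1 (chr10:86705518-86705671, minus strand): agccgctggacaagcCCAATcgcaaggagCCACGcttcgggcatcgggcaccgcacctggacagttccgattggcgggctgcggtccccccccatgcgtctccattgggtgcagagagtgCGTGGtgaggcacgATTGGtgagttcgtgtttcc
Calr (chr8:84847060-84847108, minus strand): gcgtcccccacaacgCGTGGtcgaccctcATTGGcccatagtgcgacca
Canx (chr11:50325785-50325833, minus strand): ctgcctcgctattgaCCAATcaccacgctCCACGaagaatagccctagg
Pdia6 (chr12:17266476-17266524, plus strand): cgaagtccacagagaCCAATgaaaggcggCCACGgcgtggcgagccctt
Dnajc3 (chr14:118937812-118937860, plus strand): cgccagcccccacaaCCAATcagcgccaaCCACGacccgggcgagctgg
Creld2 (chr15:88819505-88819553, plus strand): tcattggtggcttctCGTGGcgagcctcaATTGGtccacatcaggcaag
Syvn1 (chr19:6046517-6046565, plus strand): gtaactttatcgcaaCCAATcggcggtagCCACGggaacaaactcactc
Derl3 (chr10:75893227-75893275, plus strand): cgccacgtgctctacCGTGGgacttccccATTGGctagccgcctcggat
Herpud1 (chr8:94386302-94386402, plus strand): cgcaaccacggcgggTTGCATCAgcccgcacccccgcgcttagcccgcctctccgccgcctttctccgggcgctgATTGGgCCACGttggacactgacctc
These are matches of letters and not sites shown to be bound. Hspa5 has the element read by XBP1 or ATF6 upstream of the ER stress response element. Hsp90b1 has the ER stress response element on each strand, and Herpud1 has the amino acid response element upstream of the second form.

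The 9 members with the ER stress response element had log2 fold changes of -0.17 to 0.78 with a median of 0.05, and 6 of the 9 were above 0. The 21 matched members without it had log2 fold changes of -0.32 to 0.32 with a median of 0.02, and 12 of the 21 were above 0. None of either kind was called by edgeR.

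Among the chaperones, Hspa5 encodes BiP, the Hsp70 chaperone of the ER that binds the stress sensors and is the usual readout of their activation. Hspa5 had 234, 282 and 271 CPM in ANKO, against 206, 259.7 and 199 CPM in controls. Control 2 lay above ANKO 1, so the groups overlapped. The log2 fold change was 0.24 with a 95% interval of -0.05 to 0.54, and the adjusted p was 0.496. Hsp90b1, the ER Hsp90 also known as GRP94, had 172, 187 and 191 CPM in ANKO, against 169, 193 and 171 CPM in controls, with a log2 fold change of 0.05 and an interval of -0.16 to 0.25. Calr and Canx encode calreticulin and calnexin, which hold newly made glycoproteins. Calr had 319.8, 358 and 353 CPM in ANKO, against 351, 423 and 355 CPM in controls, with a log2 fold change of -0.13 (interval -0.38 to 0.12). Canx had 275, 288 and 294 CPM in ANKO, against 259.7, 264 and 246 CPM in controls, without overlap. Its log2 fold change was 0.15, with an interval of -0.04 to 0.34 and an adjusted p of 0.50. Hyou1, which exchanges the nucleotide of BiP, averaged 129 ± 6.93 CPM in ANKO and 116 ± 16.1 CPM in controls (SD, n = 3 each). The 5 chaperones together summed to 1123, 1252 and 1235 CPM in ANKO, against 1098, 1274 and 1075 CPM in controls, and the highest sum was that of a control.

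**Figure D1:**
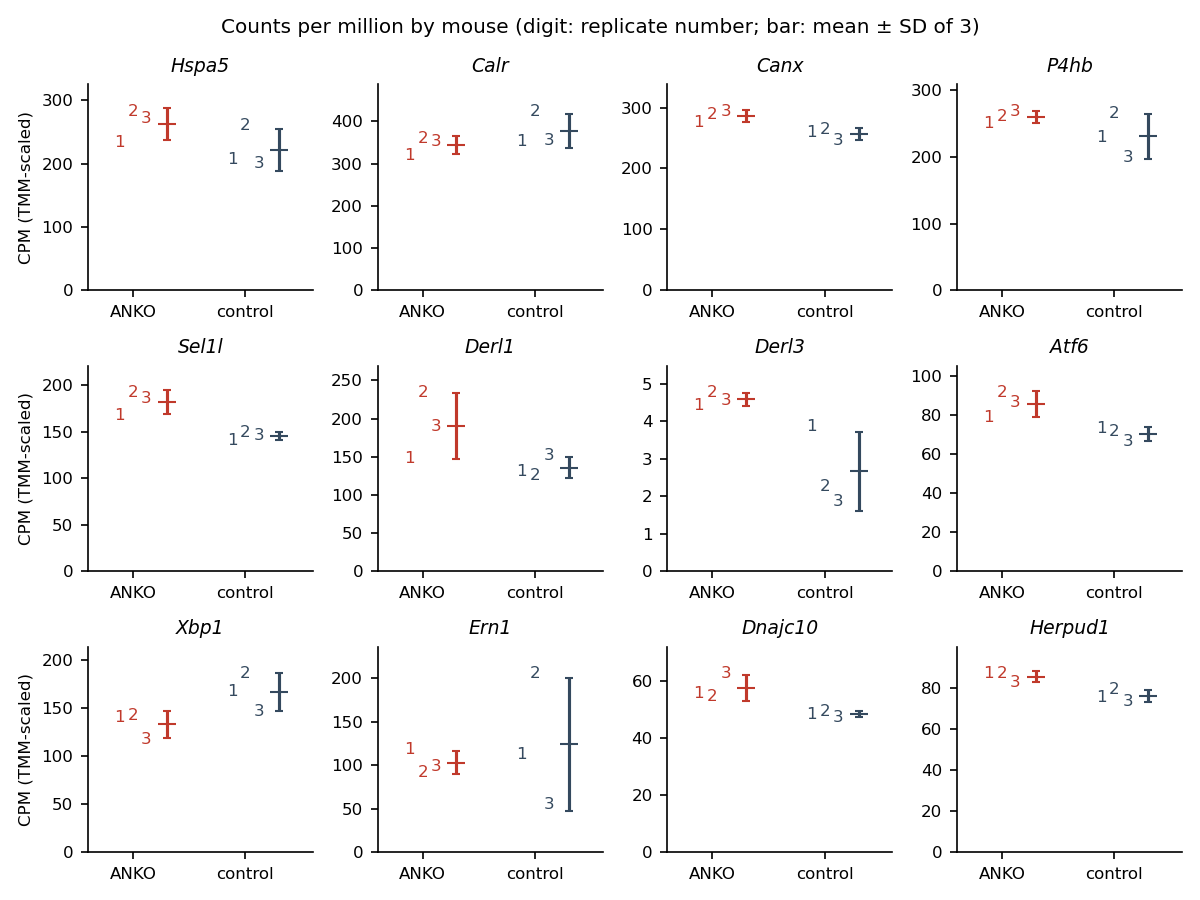
CPM, scaled by TMM, of 12 members in a panel each, with ANKO at the left and control at the right, the replicate number of each mouse drawn at its value, and bars for the mean ± SD of 3 mice. Hspa5 and Ern1 overlap between the groups, while Sel1l stands at 168 to 192 CPM in ANKO and 141 to 149 CPM in controls.

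The protein disulfide isomerases differed in sign, with 2 of 5 log2 fold changes above 0 and a median of -0.11. P4hb encodes the most abundant of them, protein disulfide isomerase itself, which is also a subunit of prolyl 4-hydroxylase. P4hb had 250.1, 261 and 268 CPM in ANKO, against 229, 265 and 198 CPM in controls, with a log2 fold change of 0.17 (interval -0.10 to 0.44). Pdia3, the isomerase that works with calnexin and calreticulin, averaged 206 ± 14.5 CPM in ANKO and 195 ± 17.5 CPM in controls (SD, n = 3 each). Pdia4 had 99.8, 91.5 and 107 CPM in ANKO, against 97.9, 142 and 112 CPM in controls, and its log2 fold change of -0.24 had an interval of -0.56 to 0.09. Pdia6, which acts on IRE1 and on folding proteins, had 94.0, 99.6 and 107 CPM in ANKO, against 91.7, 134 and 97.8 CPM in controls. In both genes control 2 was the highest library. Without it the log2 fold change of Pdia4 was -0.07, against -0.24 with all 6 libraries, and that of Pdia6 was 0.08, against -0.11. Pdia5 was the least abundant of the family, with 5.88 to 7.15 CPM in ANKO and 7.05 to 8.86 CPM in controls, a log2 fold change of -0.26 and an adjusted p of 0.602.

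All 7 co-chaperones and other luminal proteins had log2 fold changes above 0, but of a size between 0.02 and 0.25 and none called. Dnajc10, or ERdj5, reduces disulfide bonds of proteins on their way to degradation. Dnajc10 had 55.3, 54.4 and 62.5 CPM in ANKO, against 48.0, 49.3 and 47.2 CPM in controls. Every ANKO library was above every control, with a log2 fold change of 0.25 (SE 0.0846, interval 0.06 to 0.45) and an adjusted p of 0.238, from an unadjusted 0.0174 by the quasi-likelihood test of edgeR. The other J proteins stayed near 0. Dnajb9 is a target of XBP1 that represses IRE1, and it had 24.4, 27.6 and 25.8 CPM in ANKO against 22.3, 26.8 and 25.8 CPM in controls. Dnajb11, a partner of BiP in folding, had 47.4, 46.6 and 47.0 CPM in ANKO, against 46.3, 48.3 and 42.5 CPM in controls. Dnajc3, an inhibitor of PERK, had 118, 127 and 115 CPM in ANKO, against 130.0, 127 and 98.99 CPM in controls. Their log2 fold changes were 0.06, 0.04 and 0.02. Sdf2l1, which is in a complex with BiP co-chaperones, had 8.74 to 10.9 CPM in ANKO and 7.11 to 9.63 CPM in controls. Manf, a secreted stress-response protein of the ER, had 25.1 to 32.9 CPM in ANKO and 26.7 to 34.7 CPM in controls, and Creld2 had 17.1 to 19.2 CPM in ANKO and 15.98 to 19.1 CPM in controls. The groups overlapped in these 3 genes too.

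ER-associated degradation held the members farthest from 0 on the higher side. Sel1l encodes the adaptor of the HRD1 ubiquitin ligase complex, which carries misfolded proteins out of the ER lumen. Sel1l, on the minus strand of chromosome 12 at 91806043 to 91849157 of GRCm38, had 168, 192 and 186 CPM in ANKO, against 141, 149 and 147 CPM in controls. The groups were apart, with the lowest ANKO library 168 CPM and the highest control 149 CPM. Its log2 fold change was 0.32 (SE 0.0842, interval 0.13 to 0.52), with an adjusted p of 0.134 by the quasi-likelihood test and 0.0325 by DESeq2. Syvn1, which encodes the ligase HRD1 that works with the SEL1L protein, had 125, 102 and 122 CPM in ANKO, against 118, 135 and 140.3 CPM in controls. Its groups overlapped, with a log2 fold change of -0.17 and an adjusted p of 0.591.

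The derlins are membrane proteins thought to form part of the channel of this export. Derl1 had 148, 234 and 190.0 CPM in ANKO, against 131, 126 and 152 CPM in controls. ANKO 1 lay below control 3, so the groups overlapped. The log2 fold change was 0.49 (SE 0.166, interval 0.10 to 0.87, adjusted p 0.25). Without ANKO 1 it was 0.66, and without ANKO 2 it was 0.31, which is lower by more than 1.5 times. Derl2 did not share this direction, with 33.3 to 36.8 CPM in ANKO, 33.3 to 42.2 CPM in controls and a log2 fold change of -0.14. Derl3 was the least abundant member per exon length, with 105, 110 and 98 counts in ANKO and 88, 45 and 36 counts in controls. That is 4.41, 4.76 and 4.55 CPM in ANKO, against 3.85, 2.27 and 1.86 CPM in controls, without overlap. Its log2 fold change of 0.78 was the largest of the set, with an SE of 0.293, an interval of 0.10 to 1.452 and an adjusted p of 0.308. Derl3 is known for its expression in secretory cells. Markers of plasma and B cells, 13 genes in the table, summed to 827, 801 and 1086 CPM in ANKO, against 994, 907 and 1040 CPM in controls, and none was called.

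Herpud1 recruits other proteins to the HRD1 complex and has 2 of the searched elements in its promoter. Herpud1 had 86.9, 86.8 and 82.4 CPM in ANKO, against 75.3, 79.1 and 73.4 CPM in controls, without overlap. The log2 fold change was 0.17 with an SE of 0.0731 and an adjusted p of 0.387. Os9, a lectin that delivers glycoproteins to the same complex, was on the lower side. Os9 had 151, 152 and 153 CPM in ANKO, against 162, 164 and 157 CPM in controls, also without overlap. Its log2 fold change was -0.09, with an interval of -0.25 to 0.08. The mannosidase-like proteins that mark glycoproteins for export showed no difference beyond the spread. Edem1 had 124, 149.9 and 141 CPM in ANKO, against 142, 133 and 139 CPM in controls, with a log2 fold change of 0.00. The values for Edem2 were 36.1, 39.5 and 41.3 CPM in ANKO, against 34.8, 40.7 and 33.0 CPM in controls. Edem3 had 75.3, 74.7 and 73.5 CPM in ANKO, against 71.6, 80.8 and 73.2 CPM in controls, a log2 fold change of -0.01.

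**Figure D2:**
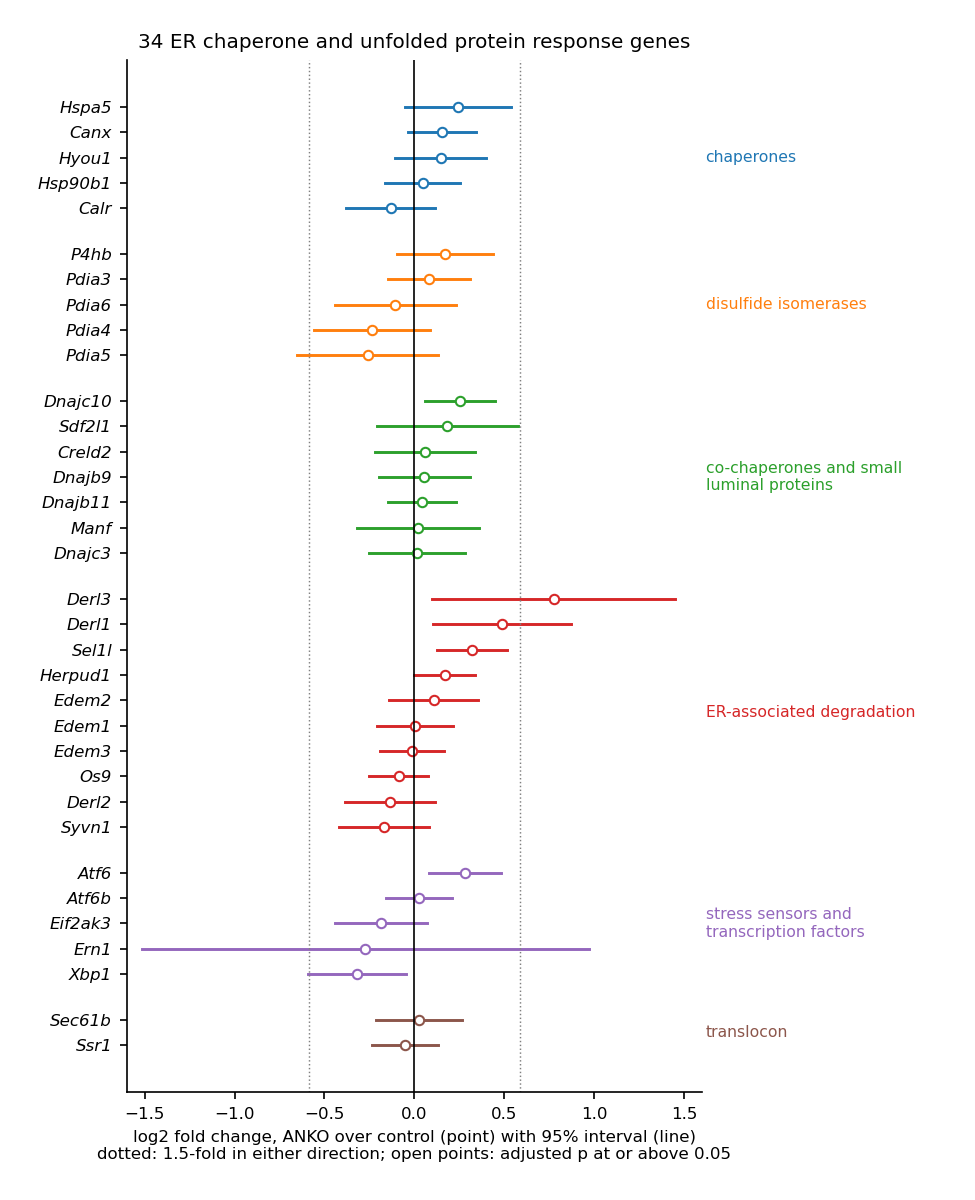
Log2 fold change, ANKO over control, of each of the 34 members (point) with its 95% interval (line), grouped by role, with dotted lines at 1.5-fold in either direction and open points for an adjusted p at or above 0.05. All 34 points are open, and the widest interval is that of Ern1, from -1.51 to 0.97.

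The sensors and their factors differed among themselves. Xbp1 encodes the transcription factor made active by IRE1 splicing, and it is the member with the lowest log2 fold change. Xbp1 had 141, 143 and 117 CPM in ANKO, against 167, 186 and 146 CPM in controls. All 3 ANKO libraries were below all 3 controls, with 143 CPM in the highest ANKO library and 146 CPM in the lowest control. The log2 fold change was -0.32 (SE 0.118, interval -0.59 to -0.05), the unadjusted p 0.0271 and the adjusted p 0.298 by edgeR. Counts per gene do not separate spliced from unspliced Xbp1, so the activity of IRE1 was not measured here. Atf6, the precursor of the cleaved factor, stood on the higher side. Atf6 had 78.5, 91.6 and 86.6 CPM in ANKO, against 73.2, 71.8 and 66.4 CPM in controls. The groups did not overlap, with a log2 fold change of 0.28 (SE 0.0869, interval 0.08 to 0.48, unadjusted p 0.012 and adjusted p 0.203 by edgeR). Its paralog Atf6b had 56.4, 60.9 and 59.1 CPM in ANKO, against 58.1, 60.8 and 54.3 CPM in controls, a log2 fold change of 0.03. Eif2ak3, which encodes PERK, had 48.4, 41.5 and 51.2 CPM in ANKO, against 50.1, 59.3 and 50.9 CPM in controls, with a log2 fold change of -0.18 and an adjusted p of 0.561.

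Ern1, which encodes IRE1-alpha, was the least precise member. Ern1 had 118, 92.2 and 98.7 CPM in ANKO, against 112, 206 and 54.9 CPM in controls. The highest and the lowest library were both controls, and all 3 ANKO libraries lay between them. The log2 fold change was -0.27 with an SE of 0.486 and an interval of -1.51 to 0.97. Without control 2 it was 0.30, and without control 3 it was -0.61, so a single control library set its sign. The summed markers of mammary epithelium, which the subcutaneous depot can hold, were also highest in control 2 and lowest in control 3. Over 15 genes they came to 1383, 1085 and 893 CPM in ANKO, against 1168, 2079 and 297 CPM in controls, and none was called. The keratins Krt8, Krt18 and Krt19 make up most of this sum. Of the 12 markers tested, control 2 was the highest library for 7 and control 3 the lowest for 11, while Krt5, Krt14, Elf5 and Csn3 peaked in an ANKO library and Lalba in control 3. Their part in the spread of Ern1 was not tested.

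**Figure D3:**
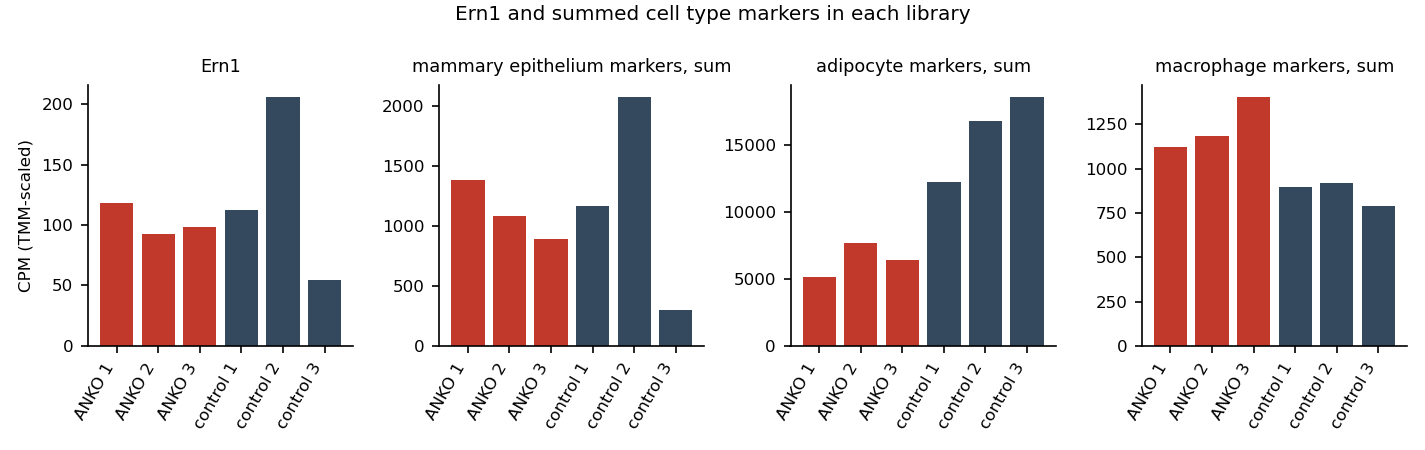
Ern1 and summed markers of other cell types in each of the 6 libraries, in CPM, with the 3 ANKO libraries at the left and the 3 controls at the right. Ern1 reaches 206 CPM in control 2 and 54.9 CPM in control 3, the libraries with the highest and lowest mammary sums of 2079 and 297 CPM.

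The 2 members of the translocation site, through which chains enter the ER, were close between groups. Sec61b, a subunit of the channel, had 21.1, 20.6 and 21.1 CPM in ANKO, against 19.7, 22.4 and 19.6 CPM in controls. Ssr1, a subunit of the translocon-associated protein complex, had 112, 109 and 119 CPM in ANKO, against 119, 123 and 111 CPM in controls. Their log2 fold changes were 0.02 and -0.05.

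The intervals give the precision of these 6 libraries. The 95% interval lay within 1.5-fold in either direction for 29 of 34 members and within 2-fold for 32. The 5 whose interval reached beyond 1.5-fold on either side were Pdia5, Xbp1, Ern1, Derl1 and Derl3. The interval lay above 0 for Sel1l, Atf6, Dnajc10, Derl1 and Derl3 and below 0 for Xbp1, before any adjustment for the number of features. An adjusted p above the threshold is therefore no evidence that a member had the same level in both groups.

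Levels between genes are compared as CPM per kilobase of exon. Calr was the most abundant member in both groups, with 119 ± 7.25 in ANKO and 131 ± 14.1 in controls (SD, n = 3 each). P4hb followed with 90.8 ± 3.19 in ANKO and 80.7 ± 11.7 in controls. Pdia3, Os9, Canx and Hspa5 came next, with means of 57.7 to 65.6 in ANKO and 52.4 to 62.0 in controls, close enough that their order differed between the groups. Xbp1 had 41.1 ± 4.35 CPM per kilobase in ANKO and 51.3 ± 6.16 in controls. At the low end stood Derl2 with 4.31 ± 0.228 in ANKO and 4.73 ± 0.558 in controls, and Pdia5 with 2.42 ± 0.260 in ANKO and 2.90 ± 0.331 in controls. Derl3 had 2.30 ± 0.0890 in ANKO and 1.33 ± 0.529 in controls. Exons of 9 members overlap another gene. The overlap, summed over the overlapping genes, is above 5% of the exon length for Hsp90b1, Manf and Eif2ak3. For these 3 the counts may hold reads of the other gene, since the strand setting of the counting is not given in the sources used here.

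**Figure D4:**
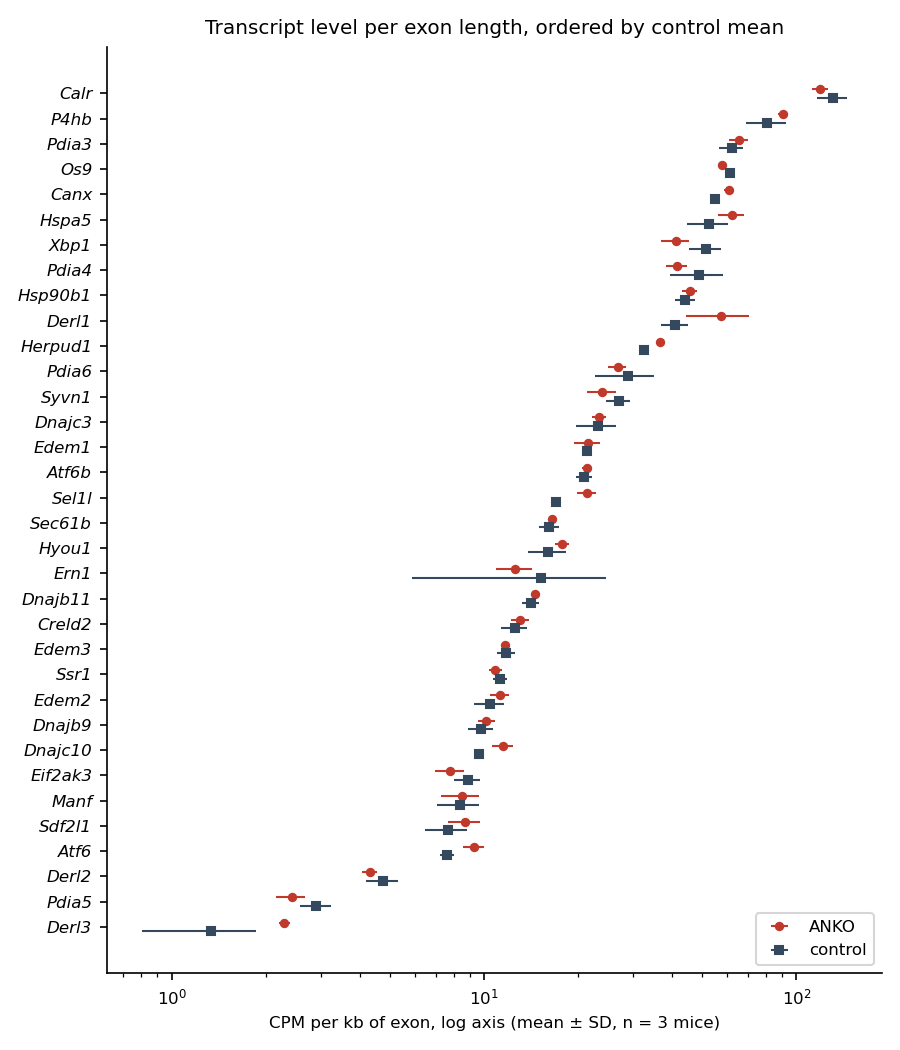
Level of each member in CPM per kilobase of exon on a log axis, ordered by the control mean, as mean ± SD of 3 ANKO and 3 control mice. Calr leads in both groups at 119 in ANKO and 131 in controls, and Derl3 is lowest at 2.30 in ANKO and 1.33 in controls.

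Genes beside the set were grouped into lists by function, chosen with earlier results of these data known. Over all features tested, 0.488% were called higher and 1.10% lower. Of 39 other ER folding genes tested, 1 was called higher and none lower, and the median of their log2 fold changes was 0.05. The gene called was Ero1l, the oxidase that recharges the disulfide isomerases. Ero1l had 30.6, 41.6 and 43.1 CPM in ANKO, against 22.9, 23.9 and 19.1 CPM in controls, without overlap. It rose by a log2 fold change of 0.80 (SE 0.154) with an adjusted p of 0.0499, and this call did not hold in 5 of 6 fits with 1 library removed, where the adjusted p reached 0.176. None of 30 other ER-associated degradation genes was called, nor any of 36 translocation and glycosylation genes, with medians of 0.05 and -0.02. The smallest p in the first belonged to Ngly1, a deglycosylating enzyme, with 40.8, 36.9 and 36.2 CPM in ANKO, against 44.6, 50.6 and 41.3 CPM in controls (adjusted p 0.333). In the second it belonged to Krtcap2, an oligosaccharyltransferase subunit, with 22.8, 25.6 and 22.7 CPM in ANKO, against 19.3, 18.3 and 18.0 CPM in controls (adjusted p 0.176). Trim46 on the opposite strand overlaps 15.7% of the exon length of Krtcap2.

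The last ER list held regulators of the stress response and targets of the PERK and ATF4 arm. Of 35 tested, 5 were called higher, 1 lower and 24 were above 0, against 0.488%, 1.10% and 50.1% of all features. The median was 0.11. This list too was chosen with earlier results of these data known. The 5 that rose were Atf3, Atf4, Atf5, Ddit3 and Ppp1r15a. Atf4, the factor made when eIF2-alpha is phosphorylated, had 106, 125 and 112 CPM in ANKO, against 72.8, 81.9 and 79.6 CPM in controls (log2 fold change 0.55, adjusted p 0.0304). Its relative Atf5 had 198, 354 and 261 CPM in ANKO, against 100.4, 90.7 and 99.8 CPM in controls (log2 fold change 1.48, adjusted p 0.0171). Ddit3, which encodes CHOP, had 22.6, 26.1 and 21.7 CPM in ANKO, against 9.94, 13.1 and 14.7 CPM in controls (log2 fold change 0.90, adjusted p 0.0418). Ppp1r15a, or GADD34, directs the phosphatase that reverses eIF2-alpha phosphorylation. It had 30.1, 37.4 and 34.01 CPM in ANKO, against 18.6, 19.3 and 17.5 CPM in controls (log2 fold change 0.87, adjusted p 0.0119). Other annotated entries overlap 10.9% of the exon length of Ddit3. Of these bases 105 belong to a second entry with the symbol Ddit3, 68 to Mars and 13 to Gm4189. Nup62 and Il4i1 overlap 82 bases each of Atf5, together 8.23% of its exon length if no base is counted for both. The counts of Ddit3 and Atf5 too may hold reads of another gene.

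Atf3, a stress-induced repressor and target of ATF4, changed most of the 5. Atf3 had 7.40, 11.0 and 11.2 CPM in ANKO, against 2.41, 2.42 and 1.597 CPM in controls, with a log2 fold change of 2.20 (SE 0.255) and an adjusted p of 0.00847. The search of its promoter window found the amino acid response element, as it did for 4 of the 30 genes of this list that matched the table (13.3%). The other genes with it were Chac1, Nupr1 and Vldlr, named here for the match. None of them was called, with log2 fold changes of 0.43, 0.49 and -0.04 and adjusted p of 0.639, 0.221 and 0.949 by edgeR. The windows of Atf4, Atf5, Ddit3 and Ppp1r15a, which were called, did not hold these letters. The ER stress response element was found for none of the 30. The stretch of Atf3 is shown with the amino acid response element in capitals.
Atf3 (chr1:191183421-191183458, minus strand): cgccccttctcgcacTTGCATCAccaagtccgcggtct
In all of these 5 genes every ANKO library was above every control, as in 9.19% of all features tested. The 5 were chosen by calls made on the same values, so this is no further support for them. Of the 5, only Atf3 was called in all 6 fits that left out 1 library, and the number of the 5 called in those fits was 1 to 4. The lowest number, 1, came without ANKO 3, and 2 were called without control 1 and without control 2. Without ANKO 2 and without control 3 there were 3 calls, and without ANKO 1 there were 4. Macrophages and other immune cells also express Atf3, Ddit3 and Ppp1r15a, and the macrophage marker sum was higher in each ANKO library than in each control. Its part in these calls was not tested. Trib3, a target of ATF4 and CHOP named after its values were seen, had 23.8, 30.9 and 31.6 CPM in ANKO, against 5.82, 12.9 and 4.74 CPM in controls, and was not called (log2 fold change 1.88, adjusted p 0.088). Of the 35 genes tested in this list, 24 were above 0 and 11 below. Among those below were Asns, Sesn2 and Cebpg, also named after their values were seen and not called. Their log2 fold changes were -0.27, -0.40 and -0.11, with adjusted p of 0.769, 0.576 and 0.722 by edgeR. The gene called lower was Map3k5, the kinase ASK1 that signals below IRE1. Map3k5 had 82.9, 79.5 and 84.4 CPM in ANKO, against 107, 141 and 130.1 CPM in controls (log2 fold change -0.61, adjusted p 0.0393), and it was called without control 1 but in none of the other 5 fits that left out 1 library.

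Of 31 cytosolic chaperones, with a median of 0.13, 27 were above 0, against 50.1% of all features. Only 1 was called, on the higher side, against 0.488% of all features. This was Hspb1, a small heat shock protein, which rose with 43.3, 51.5 and 39.5 CPM in ANKO, against 25.6, 23.9 and 25.3 CPM in controls (log2 fold change 0.85, adjusted p 0.0139). The call was lost without control 2, at an adjusted p of 0.0652. The counts and medians of the lists were not tested against each other.

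**Figure D5:**
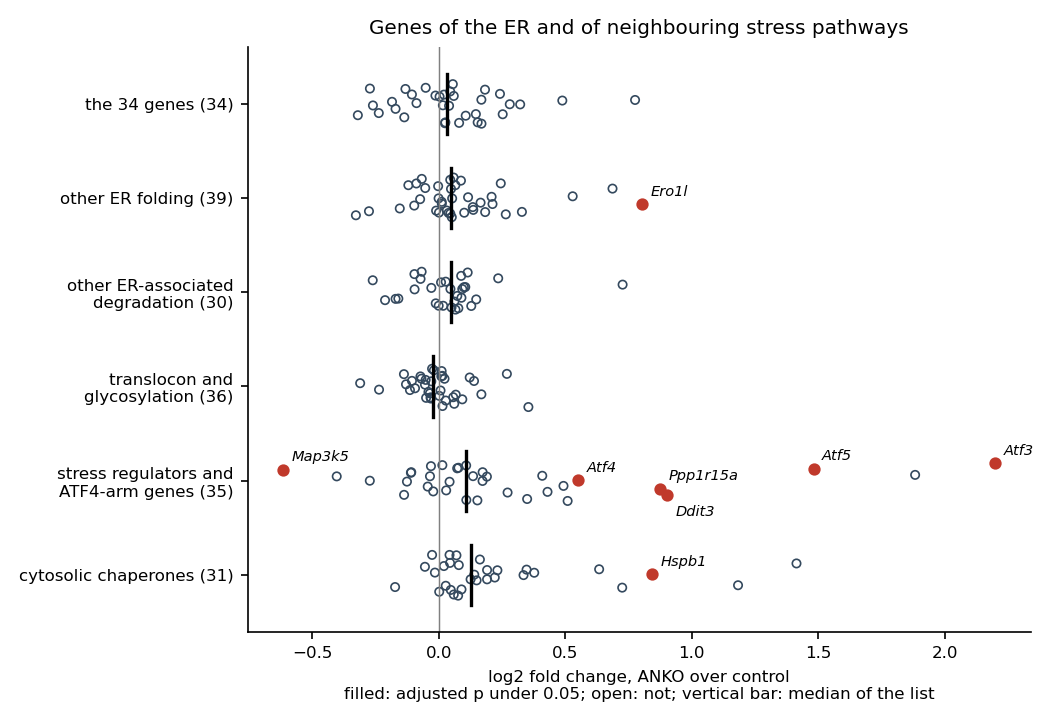
Log2 fold change, ANKO over control, of the tested genes of the ER set and of 5 neighbouring lists, 1 point a gene, filled where the adjusted p was under 0.05, with a vertical bar at the median of each list. The ER chaperone and unfolded protein response set has no filled point and a median of 0.03, and the stress regulator list has 5 filled points on the higher side and 1 on the lower.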

How the data were processed

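The authors deposited unnormalised whole-number counts by gene symbol, 1 column per mouse, per the file headers. Per the labels' protocols, RNA was extracted from frozen tissue (Qiazol, RNeasy) and depleted of ribosomal RNA (Ribo-Zero Gold), and per the submitters' processing notes STAR 2.0.4b, Subread, featureCounts 1.45 and GRCm38 were used. Of 40757 lines, 329 were exact repeats and were removed. Of values from 1 to 10 counts (10 not included), 68.2% were even, against 50.1% of those from 200 to 1000, so at low counts a fragment may have entered as more than 1 read. No pair of libraries agreed within sampling noise (chi-square per degree of freedom 31.1 to 89.3).

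Groups came from the sample titles. The whole table was fitted with edgeR 4.0.16 in R 4.3.3: filterByExpr (minimum count 10, minimum total 15), TMM scaling, robust dispersions and the two-sided quasi-likelihood F test, with Benjamini-Hochberg adjustment over 19272 features and a threshold of 0.05. Each SE is the size of the log2 fold change over the root of F, and intervals are 95%. CPM are TMM-scaled. P-values set the group difference against the spread between these 3 mice per group, with each gene's spread drawn toward that of all features tested. An exact permutation test of 3 against 3 cannot go below p = 0.1 and was not used. Exon lengths and overlaps came from GENCODE M21 on GRCm38. The steps were tested on simulated data.

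Members and lists were chosen with earlier results of these data known. Named genes are all members, Nampt, and from each neighbouring list at most 6 called genes, or, without a call, the gene of smallest p. Alternatives were RLE scaling, DESeq2 1.42.0, no low-count filter, a filter of 1 CPM in 3 libraries, robust=FALSE, a replicate block, and fits without 1 library at a time.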

Additional observations from a re-analysis of the deposited data

How the results depend on the processing

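No member was called higher or lower by edgeR under any alternative. DESeq2 called 1 member higher, Sel1l, with a log2 fold change of 0.33 and an adjusted p of 0.0325. Over all features, DESeq2 called 388 higher and 498 lower in ANKO, against 94 and 212. Without a low-count filter 167 were higher. With the replicate block 62 were higher, and 3 of the 5 called ATF4-arm genes still passed. Leaving out 1 library gave 20 to 107 higher and 55 to 221 lower. No called value reversed. The median of the members was 0.01 to 0.11 over the fits without 1 library, and 19 to 24 of 34 were above 0. Besides leaving out libraries, the call of Ero1l was lost with the filter of 1 CPM (adjusted p 0.0519), robust=FALSE (0.0655) and the block (0.106). The cause was not tested. Deviations from the group mean correlated by 0.118, -0.0328 and -0.048 between mice numbered 1, 2 and 3. Between mice of different numbers the correlations were -0.109 to 0.132. What paired mice would give is not known, so these values cannot tell whether the numbers pair the mice.

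With 3 mice a group, the median SE was 0.109 on the log2 scale over the members. Counts per gene symbol show neither splicing of Xbp1 nor translation, phosphorylation or cleavage of the sensors.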

Other observations

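The members varied more between controls than between ANKO mice. The median coefficient of variation over the 34 genes was 6.51% in ANKO and 9.69% in controls, and it was higher in controls for 27 of 34 (79.4%). Over all features tested the medians were 13.6% in ANKO and 14.4% in controls, and 51.8% were higher in controls. ANKO 2 was the highest of the 6 libraries for 9 members and ANKO 3 for 7, or 26.5% and 20.6%, against 18.3% and 14.2% of all features. Control 2 was the highest for 13 members and control 3 the lowest for 16, which is 38.2% and 47.1% of the members, against 16.6% and 21.7% of all features. The summed CPM of all 34 members was 3595, 3848 and 3844 in ANKO, against 3536, 4029 and 3388 in controls. These counts describe 6 libraries that all members share, and no difference from the other features was tested.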
